A study of Mus musculus with 14 samples.

Results

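The regions described here are the PU.1 peaks of mouse Hoxb8-FL cells at which no other mapped factor had a peak. PU.1 is the protein of the gene Spi1. A PU.1 peak was chosen when it overlapped no peak of the 12 other factors by even 1 bp, on the 19 autosomes and chromosome X. Of 76378 PU.1 peaks, 44684 were alone in this sense, or 58.5% (exact 95% interval 58.2 to 58.9), and 31694 were shared with 1 or more other factors. The lists of all 13 factors together hold 279955 peaks. The overlap itself made the choice, so the absence of the other factors from these peaks is no finding.

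Hoxb8-FL is a line of multipotent haematopoietic progenitors, labelled LMPP-like (like lymphoid-primed multipotent progenitors). A conditional Hoxb8 keeps such cells immature, and they were grown with estradiol and FLT3 and received no treatment. The series mapped the ETS factors Spi1, Erg and Fli1, the C/EBP factors Cebpb and Cebpa, and Runx1, Meis1, Gata2, Tal1, Lyl1, Lmo2, Gfi1b and Gfi1 by ChIP-seq, which sequences the DNA that an antibody against 1 protein pulls down from fixed chromatin, with 1 library per factor. A rabbit IgG library is labelled too, and no peak list of it was used here. The peak lists hold positions only, so the labelled cell type could not be compared with the expression of its markers. With 1 library per factor there is no replicate and no test between samples. Every interval below covers counting error only, and neighbouring peaks are not independent.

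PU.1 belongs to the ETS family of transcription factors, which bind DNA around a GGAA core. It is known as a regulator of macrophage, neutrophil, dendritic cell and B cell genes. ETS proteins differ in the bases they prefer before that core: PU.1 favours purine-rich flanks, as in GAGGAAGT, while Erg and Fli1, 2 ETS factors also mapped here, favour CCGGAAGT, the class I form. PU.1 can bind on its own or beside partners such as C/EBP and Runx factors.

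Stretches of promoters under peaks that were alone are printed to show the PU.1 core in its place, and were selected for holding it. Capitals mark the PU.1 core, GAGGAAGT, or its reverse complement, and each stretch runs 5′ to 3′ in the direction of the gene. The sequences are RefSeq's on GRCm38.p6, the build of the lists. The first 4 were picked by the rule for printing sequence: list genes first, then the largest overlap of promoter and peak, then the alphabet. Fcgr4, an Fc receptor of phagocytes, was the only list gene to meet it among 122 genes.

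Fcgr4, chr1:171018872-171018925, plus strand: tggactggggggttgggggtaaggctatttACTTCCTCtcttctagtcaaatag
1700042G07Rik, chr4:116173238-116173305, plus strand: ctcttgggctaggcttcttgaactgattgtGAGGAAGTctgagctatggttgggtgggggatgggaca
4930478P22Rik, chr5:35361366-35361433, plus strand: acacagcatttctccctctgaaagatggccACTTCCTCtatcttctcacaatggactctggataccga
A430093F15Rik, chr19:10740825-10740892, plus strand: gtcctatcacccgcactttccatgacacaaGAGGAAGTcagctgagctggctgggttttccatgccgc

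In these stretches the core lay 4, 10, 7 and 35 bp from the midpoint of the 400 bp peak. The other 7 promoters were chosen after their values were seen, because their genes act in myeloid cells. Tlr11 is a Toll-like receptor, Ltb4r1 a leukotriene B4 receptor, P2rx7 an ATP-gated channel and F13a1 the A subunit of coagulation factor XIII. Clec7a (dectin-1, which binds fungal glucans), Csf2ra (the alpha chain of the GM-CSF receptor) and Itgam (CD11b) are shown with the shorter core GAGGAA in capitals. Their promoters can hold more than 1 such match, with 2 at Csf2ra and 3 at Itgam, and 1 is marked.

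Tlr11, chr14:50357751-50357818, plus strand: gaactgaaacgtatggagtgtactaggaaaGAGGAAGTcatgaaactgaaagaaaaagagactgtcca
Ltb4r1, chr14:55765951-55765980, plus strand: tgctctgtggtACTTCCTCtctggctgact
P2rx7, chr5:122650375-122650404, plus strand: tgcttcgagtcACTTCCTCccctggtggtg
F13a1, chr13:37049181-37049210, minus strand: cgagtccttttGAGGAAGTacccagaggca
Clec7a, chr6:129472840-129472905, minus strand: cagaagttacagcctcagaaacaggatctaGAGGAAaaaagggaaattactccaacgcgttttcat
Csf2ra, chr19:61228419-61228456, minus strand: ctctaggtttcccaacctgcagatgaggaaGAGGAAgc
Itgam, chr7:128062660-128062689, plus strand: ggccttggtggcTTCCTCaaagtgtctgtg

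The core sat 5 bp from the peak's midpoint at Tlr11, 5 bp at Ltb4r1, 3 bp at P2rx7 and 0 bp at F13a1. The shorter core sat 41 bp away at Clec7a, 3 bp at Csf2ra and 5 bp at Itgam. The promoters were picked for holding a core, so these distances only describe them.

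A microRNA gene known to be PU.1-driven in the myeloid lineage also lay under a peak that was alone. Of 1005 RefSeq microRNA hairpins, 19 overlapped such a peak and 28 overlapped a shared PU.1 peak. Mir223, a microRNA abundant in neutrophils, lies at chrX:96242817-96242926 on the plus strand, and the peak chrX:96242472-96242871 covered 55 bases of it. The hairpin lay 1.26 kb from the nearest shared PU.1 peak, and the peak over it had a gap of 1.62 kb to the nearest peak of another factor. Both mature forms are printed with the seed, bases 2 to 8, in capitals; the seeds of the 2 arms differ.

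mmu-miR-223-5p: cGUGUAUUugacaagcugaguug
mmu-miR-223-3p: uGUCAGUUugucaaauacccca

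Mirlet7b, Mir195a, Mir30c-1 and Mir449a were among the other 18 hairpins. They are named, like Mir223, after their values were seen.

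Most peaks fell clearly on one side of the rule. Of the shared peaks, 27220 overlapped another factor's peak by 301 to 400 bp, and 898 did so by only 1 to 100 bp. Just outside the rule, 757 peaks that were alone had a gap of 0 to 99 bp to another factor's peak and 837 had a gap of 100 to 199 bp. No other factor's peak lay within 1 kb of the edges of 37218 of the peaks that were alone, or 83.3%.

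The share of PU.1 peaks that were alone changed with the place in the deposited list, whose order is not explained in the sources used here. In the first 10% of the lines 23.4% were alone and in the last 10% of them 77.6%, and the share was higher in each of the 10 equal parts of the list than in the part before. Whether the order follows peak strength was not tested, since the lists carry no score.

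**Figure D1:**
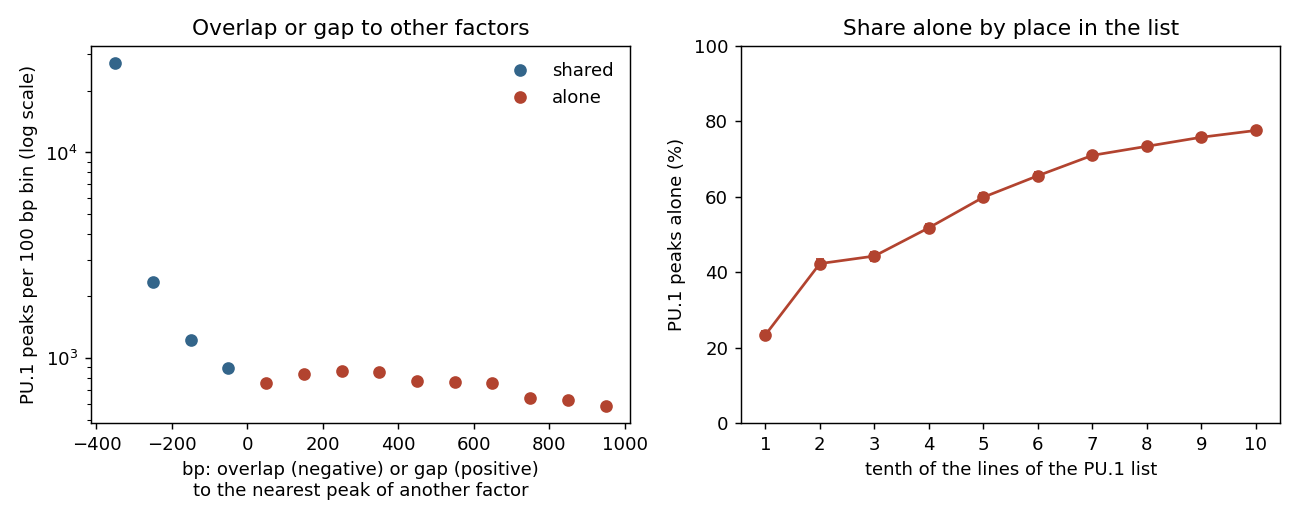
Left, number of PU.1 peaks (log axis) by their overlap with, or gap to, the nearest peak of another factor, in bins of 100 bp (overlap is drawn to the left of 0). Right, percent of PU.1 peaks that were alone in 10 equal parts of the list, in its own order, with exact 95% intervals mostly smaller than the points; it goes from 23.4% to 77.6%.

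By chromosome, the share alone ran from 55.7% on chromosome 10 to 60.7% on chromosome 18 among the autosomes. Chromosome X stood above all of them at 67.5% (65.1 to 69.8), or 1094 of its 1621 PU.1 peaks.

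Peaks that were alone lay away from promoters more often than shared ones. A protein-coding start site was within 250 bp of the midpoint of 1.89% of them (1.76 to 2.02) and of 8.97% of the shared peaks (8.66 to 9.30). Within 5 kb the shares were 15.7% and 24.2%. These values come from 43206 alone and 30737 shared peaks on the 19 chromosomes that the promoter table covers. It includes X and lacks chromosome 18. The median distance to a start site was 34.7 kb for peaks alone and 24.8 kb for shared peaks.

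Over the whole list the classes did not separate in gene bodies. A midpoint inside a protein-coding gene was found for 55.1% of the peaks alone (54.6 to 55.6) and 55.4% of the shared ones (54.9 to 55.9), and these intervals overlap. Within 1 kb of either boundary of a protein-coding gene lay 7.81% (7.56 to 8.06) against 16.5% (16.1 to 16.9). More than 100 kb from any protein-coding gene lay 9.77% of the peaks alone, 4366 in number, and 6.81% of the shared ones. Midpoints inside a protein-coding gene were 59.4% of peaks alone and 55.5% of shared ones in the first 10% of the lines. In the last 10% they were 54.8% and 56.3%.

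Near start sites, peaks alone lay more often downstream and shared peaks more often upstream. Of those alone within 1 kb of one, 1062 were upstream and 1285 downstream, so 45.2% (43.2 to 47.3) were upstream. Of the shared peaks 57.6% (56.1 to 59.1) were upstream. The first share is below an even split and the second above it.

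The low share at gene boundaries held over the whole list. It stayed between 6.97% and 8.63% in all 10 parts of the lines for peaks alone. For shared peaks it was 10.8% in the first part and 19.6% in the last, so the classes were closest where the list begins.

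**Figure D2:**
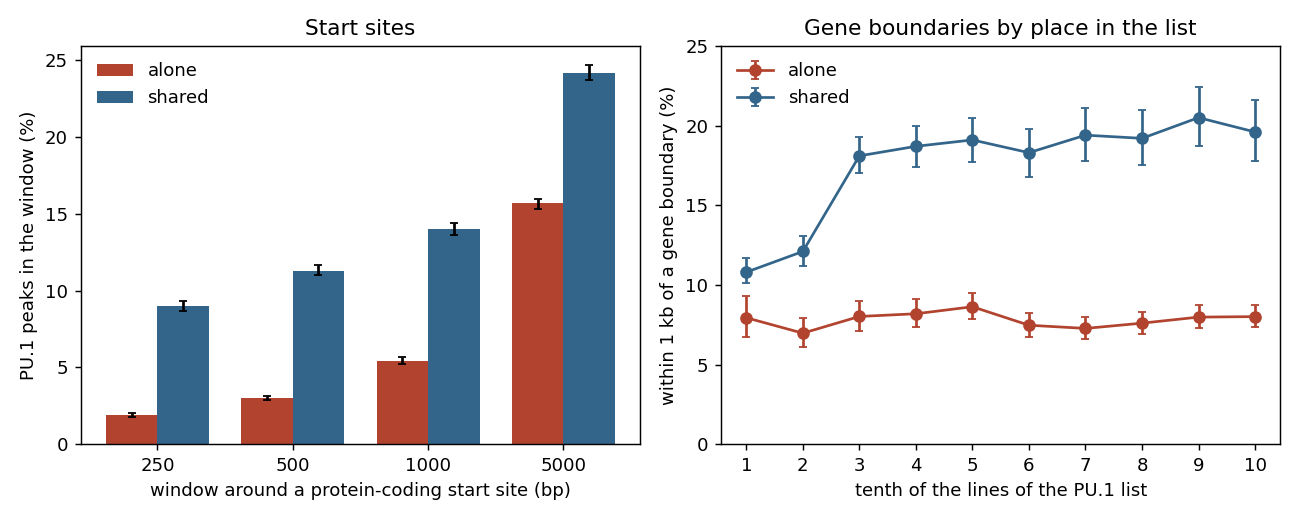
Left, percent of PU.1 peaks with the midpoint within 250 bp, 500 bp, 1 kb or 5 kb of a protein-coding start site. Right, percent within 1 kb of a protein-coding gene boundary in 10 equal parts of the list; error bars are exact 95% intervals, and the shared peaks lie above the peaks alone in every window and part.

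Peaks alone of other factors differed from those of PU.1 in both directions. Within 1 kb of a gene boundary lay 9.17% of the Cebpa peaks that overlapped no other factor (8.20 to 10.2), 9.02% of those of Cebpb, and 18.7% of those of Lmo2. The share was 3.22% for Gata2, 3.30% for Meis1 and 3.43% for Tal1. Among the factors compared, the 7.81% of PU.1 thus stood between the haematopoietic factors Gata2, Meis1 and Tal1 and the C/EBP factors. Erg, Fli1, Runx1, Gfi1, Gfi1b and Lyl1 had fewer peaks alone than the minimum set for this comparison and were left out.

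At promoters under peaks alone, the PU.1 core was more frequent than in all promoters and the class I core was not. A promoter here is the 300 bases from 250 before to 50 after a start site, and motifs were sought on both strands. GAGGAAGT was in 134 of the 1463 promoters under a peak alone, 9.16% (7.73 to 10.8), and in 7.62% (6.86 to 8.44) of the 4461 under a shared PU.1 peak. Of promoters with no PU.1 peak 2.15% held it, and of all 32619 promoters 3.22%.

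CCGGAAGT, a motif added after values were seen, was in 33 of the promoters under a peak alone, 2.26% (1.56 to 3.15). Under shared peaks it was in 14.0%, and in all promoters in 3.91%. Among shared peaks it followed the other ETS factors: 19.2% of the promoters that also had an Erg or Fli1 peak held it, against 1.94% (1.27 to 2.82) of those with neither. The value at peaks alone was close to the latter and to the 2.32% of promoters that had no PU.1 peak. Peaks alone overlap no Erg or Fli1 peak by the rule. GAGGAAGT differed in the same direction among shared peaks, at 8.56% (7.60 to 9.60) with an Erg or Fli1 peak on the promoter. With neither it was 5.44% (4.28 to 6.79), below the 9.16% (7.73 to 10.8) at peaks alone. GAGGAAGT and CCGGAAGT share their last 6 letters but cannot occupy the same bases on one strand.

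Base composition differed along with these shares. The median promoter under a peak alone had 57.0% G and C and 13 CpG dinucleotides, under a shared peak 60.0% and 20, and with no PU.1 peak 51.3% and 6. The part of composition in the motif shares was not tested.

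The PU.1 core was centred under the peaks that were alone. Of 122 matches that fell within a peak, 106 lay within 50 bp of its midpoint, 86.9% (79.6 to 92.3), while 28.5% of the promoter bases under these peaks lay there. For shared peaks the number was 260 of 292, 89.0% (84.9 to 92.4), an interval that overlaps the first. The class I core was less centred under shared peaks, at 271 of 487 matches or 55.6% (51.1 to 60.1). Only 18 class I matches fell within peaks alone, 10 of them within 50 bp.

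**Figure D3:**
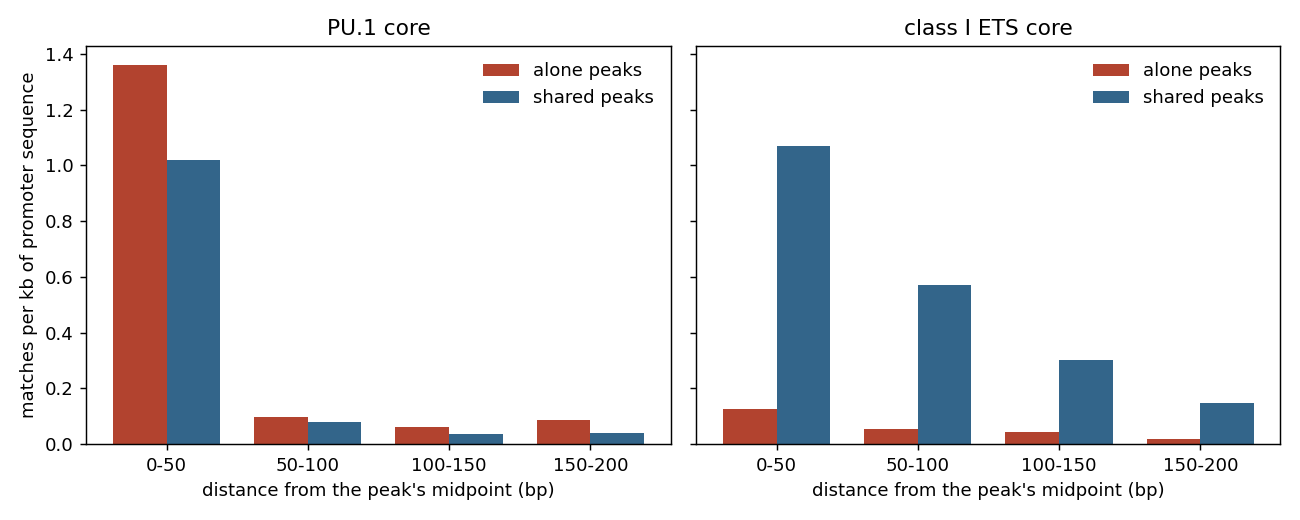
Matches per kb of promoter sequence of the PU.1 core (left) and the class I ETS core (right) by distance from the midpoint of the peak, for peaks alone and shared peaks. The PU.1 core stood at 1.36 matches per kb within 50 bp of the midpoint of peaks alone and at 0.0969 from 50 to 100 bp, and the class I core at 0.128 and 0.0554.

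By place in the list, 11.7% (9.21 to 14.7) of promoters under peaks alone from the first 50% of the lines had GAGGAAGT, against 7.51% (5.87 to 9.44) from the rest. These intervals overlap slightly.

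Most peaks alone had a shared region in their neighbourhood. All peaks that touched were merged, and 53252 of the merged regions held 2 or more factors and are called shared regions here. From a peak alone the nearest was a median of 8.29 kb away (8.14 to 8.45), and the middle 50% of the peaks lay 2.64 to 24.4 kb away. Within 10 kb of a shared region lay 54.8% of the peaks alone, and 3182 peaks, 7.12%, lay over 100 kb from any. For comparison, shared PU.1 peaks had a median of 4.42 kb to the nearest other shared region, and 70.5% were within 10 kb.

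Distances were longer to regions with more factors, which are also fewer. The median distance to the nearest of 31574 regions with 3 or more factors was 14.4 kb. To the nearest of 2831 regions with 10 or more factors it was 189 kb, and 6.22% of the peaks alone lay within 10 kb of one.

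The 5 peaks farthest from any shared region were all on chromosome X. The peak chrX:89834150-89834549 was 2.88 Mb away, with 4932429P05Rik as its nearest protein-coding gene at 78.9 kb. The other 4 were 2.49 to 2.64 Mb away. Tmem47, a membrane protein gene, lay 52.8 kb from one of these, chrX:81150457-81150856.

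The nearest other factor was most often a C/EBP factor, and their lists are the longest of the 12. Cebpb was nearest to 20.1% of the peaks alone and Cebpa to 19.1%, while their lists make up 18.6% and 17.2% of the other factors' peaks. Meis1 was nearest to 11.5% with 6.75% of the peaks, and Gata2 to 3.63% with 1.58%. Erg was nearest to 2.07% with 4.43% of the peaks, and Lyl1 to 1.60% with 4.37%. The ETS factor Fli1 took 9.75% with 10.8% of the peaks. These shares count nearest peaks at any distance. Among the 4865 peaks alone with another factor's midpoint within 1 kb, Meis1 was nearest to 7.05% and Gata2 to 1.81%, close to their list shares. There Cebpb took 21.7%, Cebpa 20.1%, Fli1 10.3%, Erg 2.65% and Lyl1 2.08%. By the rule no counted peak overlaps the peak alone itself, while other factors' peaks at shared PU.1 peaks are in the count.

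Peaks alone were spread out more than shared ones. Any other PU.1 peak lay within 10 kb of 64.9% of the peaks alone (64.4 to 65.3) and of 78.0% of the shared peaks (77.6 to 78.5), with median distances of 5.91 and 3.74 kb. Within their own class, 48.4% of the peaks alone had another peak alone within 10 kb, while 54.9% of the shared peaks had another shared one. This was so although the class alone is the larger.

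**Figure D4:**
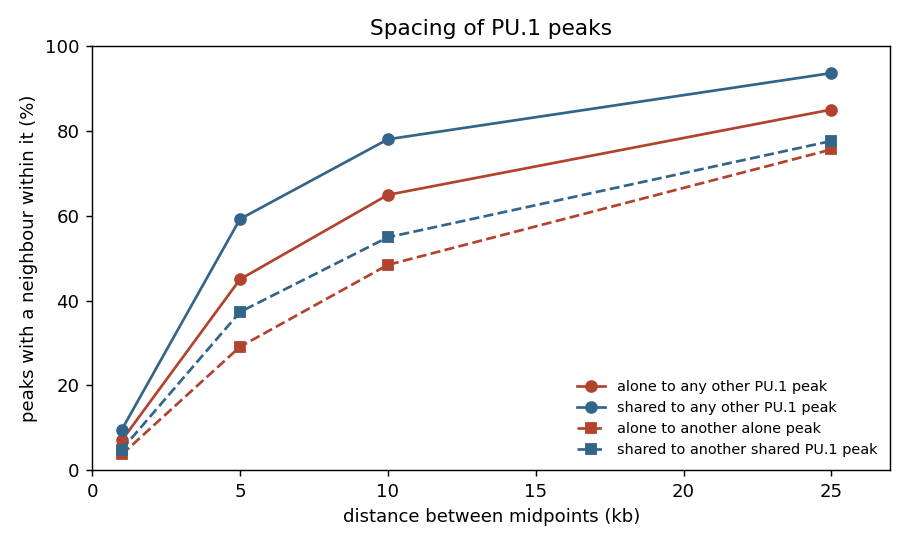
Percent of PU.1 peaks with a neighbour within 1, 5, 10 or 25 kb between midpoints, to any other PU.1 peak (solid lines) and within the own class (dashed lines). At 10 kb the solid lines stand at 64.9% for peaks alone and 78.0% for shared peaks.

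Linked at 10 kb, the peaks alone formed 31569 groups, of which 23057 were single peaks, 51.6% of the class. Groups of 2 to 4 peaks numbered 8092. Runs of 5 or more numbered 420 and held 2415 peaks, 5.40% of the class. When other peaks within 1 kb counted as shared, there were 174 such runs.

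The longest runs were not free of other factors. The longest, of 12 peaks alone, lay in 69.2 kb at chr1:132315803-132384989, over the kinase gene Nuak2 and Tmcc2, with 4 shared PU.1 peaks and 6 shared regions in between. A run of 11 lay at chr11:106687341-106741678 over Pecam1, which encodes the adhesion molecule CD31 of endothelium, platelets and leukocytes, with 2 shared PU.1 peaks. The densest of the 5 held 10 peaks alone in 26.8 kb at chr8:25078164-25104967, over Plekha2, an adaptor that binds membrane phosphoinositides. Another run of 10, in 46.6 kb at chr14:25513717-25560315 covered part of Zmiz1, a transcriptional coregulator. The last run of 10, at chr13:52790959-52830525, lay over no protein-coding gene.

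Most genes had a peak alone nearby. With a locus defined as the gene and 50 kb on either side, 17795 of 21631 protein-coding genes, or 82.3%, had 1 or more peaks alone, with a median of 3 per locus beside 2 shared PU.1 peaks. Inside the gene itself 45.2% had one. A promoter under a peak alone, with no shared PU.1 peak on it, was found for 963 of 17274 genes, 5.57%, while 19.4% had a promoter under a shared PU.1 peak.

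The genes with the most peaks alone were mostly long. Arhgap26, with a locus of 875 kb, had 42, beside 44 shared PU.1 peaks. Pde4d, a cyclic AMP phosphodiesterase gene, had 41, Gse1 38, Lpp 36, Lrmda 35, and Asap1, an Arf GTPase-activating protein gene, 34. Asic2, an acid-sensing channel gene, had 33, also in a long locus of 1188 kb.

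The other 3 of the 10 were Etv6, Elmo1 and Foxp1, with loci of 334, 618 and 697 kb. Etv6, an ETS repressor of blood cells, had 33 peaks alone and 16 shared ones, or 9.87 alone per 100 kb. The median of all genes was 2.60, and Gse1 and Asap1 had 8.39 and 8.58. Elmo1, which acts in cell engulfment and migration, had 32 alone and 14 shared. Foxp1, a forkhead factor of B cell development, had 32 and 25.

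At 615 genes, 2.84% of those tested, the locus held peaks alone and no peak of any other factor. Most rested on little: 414 had a single peak, and 20 had 5 or more. With 10 kb on either side the number was 1141, with 100 kb 444, and with the first 50% of the lines of every list 1128. Olfactory receptor genes made up 97 of them, of 1110 such genes tested. A further 2593 loci had no peak of any of the 13 factors.

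Sdc3, the gene of the heparan sulfate proteoglycan syndecan-3, had the most, with 9 peaks alone from 9.88 kb below its lower boundary to 39.1 kb above its upper one. The nearest peak of another factor was 30.7 to 93.5 kb from each of them. Hus1, a subunit of the DNA damage clamp, and Svs2, a seminal vesicle protein gene, had 7 each. Hus1 and Zfp108, a zinc finger gene with 6 peaks, also had a promoter under a peak alone. Gprin2, Gpx8 and Hand2, a heart and limb transcription factor gene, had 6 each, and Fezf2, a forebrain regulator, 5. Sun3 and Gm11992, with 5 each, neighbour Hus1 on chromosome 11 and share peaks with it.

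The share of PU.1 peaks that were alone differed between gene lists. Over the loci of all protein-coding genes 57.5% were alone. Of 17 gene lists, 9 had an interval wholly below this, 2 wholly above and 6 around it. The 9 were granule proteins at 41.3%, phagocyte genes at 43.6% (38.5 to 48.8), Toll-like receptor signalling at 44.3%, myeloid receptors at 46.8%, Src and Syk signalling at 46.8%, PU.1 relatives at 47.2%, B cell genes at 47.9%, housekeeping genes at 48.1% and osteoclast genes at 49.7%. Housekeeping genes, used in every cell, were thus among them, so a low share was not limited to blood genes. The 6 lists around it were T cell genes at 62.2%, neuron genes at 61.4%, erythroid genes at 56.5%, dendritic cell genes at 55.6%, megakaryocyte genes at 50.3% and mast cell genes, with an interval of 41.0 to 59.0. Heart and skeletal muscle genes stood at 69.2% (60.1 to 77.3) and liver genes at 68.5% (57.8 to 78.0). With loci of 10 or 100 kb on either side, neither of these 2 intervals stood wholly above the share over all loci. The interval of osteoclast genes then held that share too, at 55.6% and 53.2%, as did that of B cell genes with 100 kb, at 52.4% (46.9 to 57.9). Since shared peaks are defined by other factors, this share moves with their number as well as with that of peaks alone.

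**Figure D5:**
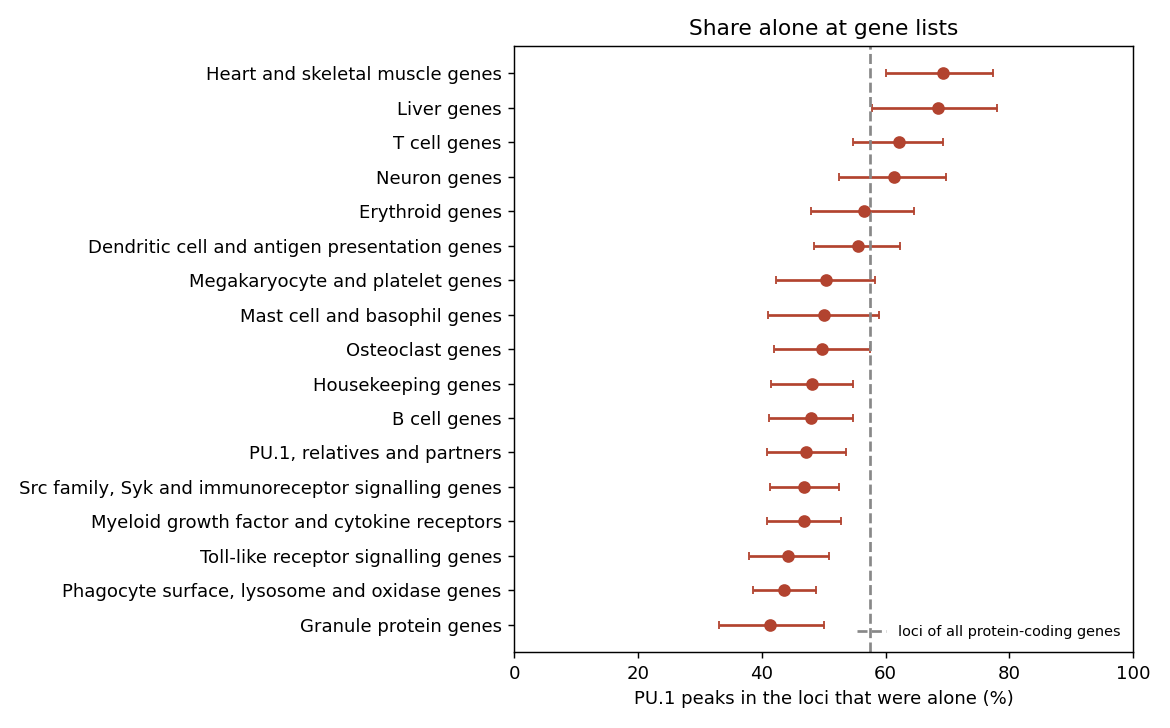
Percent of the PU.1 peaks in the loci of each gene list that were alone, with exact 95% intervals; the dashed line marks 57.5%, the share over the loci of all protein-coding genes. Granule protein genes are lowest at 41.3% and heart and skeletal muscle genes highest at 69.2%.

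Most genes of every list had a peak alone in the locus, as most genes did: 20 of 20 PU.1 relatives, 35 of 35 phagocyte genes, 17 of 20 liver genes and 19 of 20 muscle genes, beside 82.3%. Inside the gene body, where 45.2% of all genes had one, it was 16 of 20 myeloid receptors and 15 of 20 Src and Syk signalling genes. It was 13 of 15 osteoclast genes and 5 of 16 granule protein genes. Other lists fell on either side, with 12 of 20 neuron, 12 of 20 T cell and 10 of 20 muscle genes. Housekeeping genes gave 8 of 20 and liver genes 7 of 20. A longer gene has more room for a peak, and gene length was not taken into account.

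Among PU.1, its relatives and its partners, peaks alone were found at all loci, with 1 to 19 each. Spi1 itself had 6 alone and 11 shared. Bach2, a repressor of B and T cell programmes, had 19 alone and 15 shared. Cebpa, which drives granulocyte development, had 12 and 11, and Irf8, which pairs with PU.1 on DNA, had 10 and 16. Maf, a macrophage factor, had 3 alone and no shared peak.

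Spic, a close relative of PU.1 known from red pulp macrophages, had a peak alone on its promoter. It was centred 48 bp before the start site at chr10:88682871-88683270, and the nearest peak of another factor was 25.4 kb away. Egr2, a factor of macrophage differentiation, had one too, 77 bp before its start, but only 0.0380 kb from another factor's peak. These were 2 of the 15 genes of the list with a promoter sequence, where all genes gave 5.57%.

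Myeloid growth factor and cytokine receptors had 2 to 14 peaks alone. Tnfrsf1a, a TNF receptor, had 14 alone and 8 shared. Kit, the stem cell factor receptor, had 11 alone and only 2 shared, and 5 of the 11 lay in the gene, from 1.74 to 66.0 kb above its lower boundary. Of those 5, 4 were 38.8 kb or more from any other factor's peak. Il4ra, a chain of the IL-4 receptor, had the reverse, with 9 alone and 18 shared, and Csf1r, the M-CSF receptor, had 7 and 10. Flt3, the receptor of FLT3 ligand, had 9 and 14.

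The Csf2ra promoter was the only one of 16 in this list under a peak alone. That peak, chr19:61228221-61228620, was centred 3 bp before the start and lay 0.279 kb from another factor's peak.

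Phagocyte genes had 1 to 13 peaks alone. Itgal, an integrin chain of leukocytes, had 13 alone and 9 shared, Itgax (CD11c) 10 and 5, and Itgam 9 and 9. Cybb, the catalytic subunit of the NADPH oxidase, had 3 alone and no shared peak. All 3 lay inside the gene, 2.09 to 3.76 kb from another factor's peak. Ncf1, a cytosolic subunit of the same oxidase, had 2 alone and 9 shared.

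Promoters under a peak alone were 4 of 26 in this list, where all genes gave 5.57%. At Itgam the peak was centred 30 bp after the start, at Itgax 24 bp before it, at Fcgr4 16 bp before it and at Clec7a 53 bp before it. Their gaps to another factor's peak were 2.68, 3.82, 1.36 and 0.846 kb. Of the 26 genes, 11 had a promoter under a shared PU.1 peak. No granule protein promoter of 14 was under a peak alone, while 7 were under a shared one, where all genes gave 5.57% and 19.4%.

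Signalling genes of the same cells gave a mixed picture. Fgr, a Src family kinase of myeloid cells, had 15 peaks alone and 6 shared, with a peak alone centred 17 bp after its start. Pik3cd, the leukocyte PI3 kinase, also had a promoter under a peak alone, 44 bp after the start. Among Toll-like receptor genes Ly86, which encodes MD-1, had 14 alone and 10 shared, and Tlr3, Tlr6 and Irak1 had promoters touched by a peak alone, by 9 bases only at Tlr6. The Irak1 peak also covered Mir718. Of 21 Toll-like receptor signalling genes with a promoter sequence, 3 had it under a peak alone and 9 under a shared one. Of 13 Src and Syk signalling genes it was 2 and 7, where all genes gave 5.57% and 19.4%.

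Antigen presentation genes had 2 to 16 peaks alone in their loci. Ciita, the master regulator of MHC class II, had 16 alone and 3 shared. Cd74, the invariant chain, had 11 and 5. H2-Aa, an MHC class II chain, had a peak alone on its promoter, as the only 1 of 12 promoters in the list, where all genes gave 5.57%. As a list they stood at 55.6% alone (48.5 to 62.4), an interval that holds the 57.5% of all loci.

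Genes of other lineages had peaks alone as well. Vwf, the von Willebrand factor gene, had 17 alone and 6 shared, and the platelet receptor gene Gp1ba 13 and 7. Ank1, an ankyrin of red cells, had 12 and 2, and Slc4a1, the red cell anion exchanger, 10 and 3. Cd247, the zeta chain of the T cell receptor, had 12 and 8. Ebf1, a B cell factor, had 12 and 16. These genes are named for having the most peaks alone in their lists, where the median over all genes was 3. The locus of Ebf1 is 490 kb long, with 2.45 peaks alone per 100 kb beside a median of 2.60 for all genes. Alas2, Gp6, Il7r and Cd3d of the same lists had no peak alone.

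Genes of mast cells, osteoclasts and tissues outside the blood did too. Mitf, a factor of mast cells, osteoclasts and melanocytes, had 10 alone and 12 shared, with a peak alone touching a promoter. Acp5, the osteoclast acid phosphatase, had a promoter touched by one. Promoters under a peak alone were 2 of 13 in mast cell genes and 2 of 8 in osteoclast genes, where all genes gave 5.57%. Muscle gene loci held 0 to 12 peaks alone. Ryr1, the calcium release channel, had 12 alone and 5 shared, and Myog, a myogenic factor, 9 and 4. None of the 17 liver, 12 neuron and 18 muscle gene promoters was under a peak alone, and none was under a shared one, where all genes gave 5.57% and 19.4%. No promoter was under a peak alone either among 19 B cell, 17 T cell, 14 erythroid and 15 housekeeping genes. Under a shared peak were 8, 2, 2 and 8 of them.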

How the data were processed

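ChIP-seq peak lists of 13 factors in Hoxb8-FL cells were used, with 1 library per factor. Per the labels' protocols, cells were fixed for 10 min in 0.4% or 1% formaldehyde (which of them for each factor is not known here) and chromatin was sonicated for 7 min, 30 s on and 30 s off. The submitters' processing notes name Bowtie2, MACS2, bedtools, mm10 and GRCm38, without versions or roles. The deposited lists hold positions only, in 3 columns with no score, and all peaks are 400 bp wide, so depth is unknown and other factors' undetected sites would make a PU.1 peak count as alone. The 3 mitochondrial lines of other lists were left out.

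Overlaps, distances to midpoints, groups linked at 10 kb and loci were computed with Python 3.11.15, numpy 2.4.6 and pandas 2.3.3, and the functions were tested on simulated data. Shares carry exact (Clopper-Pearson) 95% intervals (scipy 1.17.1), and medians order-statistic intervals. RefSeq genes and promoters are of GRCm38.p6. The gene table has no strand or exons, so planned boundary distances use either end of a gene, and introns and exons were not told apart. Start sites come from the promoter table, which covers 19 chromosomes and lacks chromosome 18. Of 344 list entries 343 were found.

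Members, gene lists and tests were chosen with earlier results of these data known. Named genes are the 10 with most peaks alone, the 10 with most among loci with no other factor, the top 3 of each list and genes of the lists on PU.1, myeloid receptors and phagocytes; the 5 largest runs and 5 farthest peaks are also named. List genes named for a promoter under a peak alone, the motif CCGGAAGT and others beside the PU.1 core, and the single peaks at Kit, Cybb, Sdc3 and Spic, were chosen after values were seen. Alternatives covered the overlap rule, windows, the first 50% of the lines, single lists and the motif.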

Additional observations from a re-analysis of the deposited data

How the results depend on the processing

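Counting an overlap of 200 bp or more as shared gave 46787 peaks alone, and counting other peaks within 1 kb as shared gave 37218. Leaving out single lists gave 44700 to 46972, highest without Fli1. With the first 50% of the lines of every list 23331 were alone, 61.1% of 38189 PU.1 peaks. The share of peaks alone within 1 kb of a gene boundary was 5.99% when other peaks within 1 kb counted as shared and 10.3% with the first 50% of the lines, where shared peaks gave 14.6%. With windows of 500 bp and 5 kb it was 4.14% and 24.7%, against 12.6% and 32.6% for shared peaks, so peaks alone stayed below shared ones under these 3 settings. Inside genes the share was 54.1% and 56.3% under the 1 kb rule and the first 50% of the lines.

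The median distance to a shared region was 14.4 kb for regions of 3 or more factors, 9.62 kb for regions of 2 or more factors other than PU.1, and 13.1 kb with the first 50% of the lines. Peaks alone with another within 5 and 25 kb were 29.1% and 75.6%, and within 10 kb 34.3% with the first 50% of the lines. Runs of 5 or more numbered 49 and 2079 when linked at 5 and 25 kb, and 174 under the 1 kb rule. Genes with peaks alone and no other factor numbered 1141 with 10 kb on either side, 444 with 100 kb, and 1128 with the first 50% of the lines. The motif share was 40.0% for GAGGAA, where all promoters gave 28.2%, and 11.9% with an overlap of 150 bases or more. With 1 promoter a gene, added after seeing the data, it was 9.42%. Gene lists below the share over all loci were 8 and 7 with 10 and 100 kb flanks, and lists above it were 0 and 0, so the calls for liver and muscle genes were lost under both. The call for osteoclast genes was also lost under both (55.6% and 53.2%), and that for B cell genes with 100 kb (52.4%). These changes follow from the changed window, class or list; other causes were not tested.

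No paired analysis was possible because each factor has 1 library. The lists have no depth or score, so an absent peak cannot be told apart from one not detected.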

Other observations

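Motifs of other factors were counted in the same promoters, after the values of the PU.1 core were seen. The C/EBP core TTGCNNAA was in 7.25% (5.97 to 8.70) of the promoters under a PU.1 peak that was alone, in 9.46% (8.62 to 10.4) of those under a shared PU.1 peak and in 10.9% of all promoters. The Runx core TGTGGT was in 14.4% (12.6 to 16.3), 14.0% and 16.6%. The GC box GGGCGG, a site of Sp factors common in CpG-rich promoters, was in 52.4% (49.8 to 55.0), 59.4% (58.0 to 60.9) and 35.9%. Thus the C/EBP and Runx cores were less frequent than in all promoters, and the GC box more frequent, under peaks alone and shared peaks. Peaks alone overlap no Cebpa, Cebpb or Runx1 peak by the rule. Base composition differs between these promoters, and its part in these shares was not tested.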
